A study of Mus musculus with 10 samples.

Results

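Cpa3, Cma1, Tpsab1, Tpsb2, Mcpt1, Mcpt2, Mcpt4, Mcpt8 and Hdc, 9 of the 32285 genes in the count matrices, were followed through SW1 melanomas of mice given L-fucose (L-fuc) or control water. The 9 genes were selected on their measured levels, which differed between these libraries and marked a small set of cells, so their own levels are a description with no test. Of these genes, 8 encode secretory granule proteases, and Hdc encodes histidine decarboxylase, an enzyme and not a protease, which was therefore left out wherever protease counts were summed. The study asked how oral L-fuc, a plant sugar that cells attach to their proteins, alters immune cells in tumors, and sequenced single cells from tumors before treatment and after 7 and 21 days on control or L-fuc water.

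SW1 is a mouse melanoma line, and it was injected under the skin of the right flank of female C3H/HeJ mice aged 4 to 6 weeks. Tumors of several mice were pooled, so each of the 5 conditions had 1 gene expression library, and 1 T cell receptor library from the same pool. The label of the pretreatment library names 3 mice. For the day 7 and day 21 pools the labels give 6 mice in one protocol and 5 in another, and a dose of 100 mM in one and 100 nM in the other, and the conflict could not be settled here. The pretreatment mice and both control pools drank water without added L-fuc. The libraries are named by group and day (pretreatment day 0, control or L-fuc day 7, control or L-fuc day 21), and lists of 5 values below keep that order. With 1 library for each condition no test between conditions was possible, and every interval below is a 95% interval for counting error in these libraries, which leaves out the variation between mice and between pools.

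Mast cells and basophils are granule-filled immune cells that carry the high-affinity receptor for IgE and release histamine, proteases and lipid mediators when that receptor is cross-linked. Mast cells live in tissues, depend on the receptor Kit, and store carboxypeptidase A3, tryptases and chymases in their granules, and in mice the chymases Mcpt1 and Mcpt2 are typical of mucosal mast cells, whereas Mcpt4, Cma1 and Tpsb2 are typical of mast cells of connective tissue. Basophils circulate in blood, lack Kit when mature, and make Mcpt8 and Prss34.

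On GRCm38, with positions from the GENCODE annotation, Cma1, Mcpt1, Mcpt2, Mcpt4 and Mcpt8 lie within 144 kb of chromosome 14, from base 55941451 to base 56085273. Cma1 occupies chr14:55941451-55944675, Mcpt1 chr14:56017971-56020384, Mcpt2 chr14:56042041-56044642, Mcpt4 chr14:56059629-56062313 and Mcpt8 chr14:56082166-56085273, each with 5 exons. The tryptases Tpsab1 (chr17:25343245-25345562) and Tpsb2 (chr17:25366305-25369098) are neighbours on chromosome 17. Cpa3 lies at chr3:20215620-20242181 with 11 exons, and Hdc at chr2:126593667-126619299 with 12 exons. Mcpt1, Mcpt2 and Mcpt4 are close copies of each other, and Cma1 and Mcpt8 are less alike. The transcripts of Mcpt1 and Mcpt4 were identical at 84.9% of aligned bases with a longest shared run of 46 bases, those of Mcpt1 and Mcpt2 at 80.7% with a run of 49 bases, and those of Tpsab1 and Tpsb2 at 71.7% with a run of 39 bases. Cma1 shared 57.4% to 61.5% with Mcpt1, Mcpt2 and Mcpt4, and Mcpt8 shared 54.8% to 57.5% with Mcpt1, Mcpt2, Mcpt4 and Cma1. Reads that fall wholly inside a shared run could be split or dropped by the counting, so the levels of Mcpt1, Mcpt2, Mcpt4 and of both tryptases carry that uncertainty.

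The RefSeq promoter table for GRCm38.p6 held 6 of the 9 genes, all but Tpsab1, Tpsb2 and Mcpt2. The 100 bases from 80 before the start site to 20 from it are shown for 4 genes. Mcpt1 and Mcpt4 are among the genes that define the cells with tryptase or chymase described below. Cpa3 was read mostly in those cells, and Mcpt8, which defines the other class, mostly outside them. Capitals mark AGATAA, a motif of factors such as Gata2 that was searched on both strands, and TATAAA, a core promoter motif searched on the strand of the gene.
Cpa3 (chr3:20242162-20242261, minus strand): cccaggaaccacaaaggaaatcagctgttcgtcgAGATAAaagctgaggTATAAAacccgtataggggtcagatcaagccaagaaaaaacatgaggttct
Mcpt1 (chr14:56017884-56017983, plus strand): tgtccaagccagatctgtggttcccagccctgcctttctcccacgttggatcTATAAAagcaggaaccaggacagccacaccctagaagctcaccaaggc
Mcpt4 (chr14:56062291-56062390, minus strand): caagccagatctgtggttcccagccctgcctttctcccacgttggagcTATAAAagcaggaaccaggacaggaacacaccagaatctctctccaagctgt
Mcpt8 (chr14:56085178-56085277, minus strand): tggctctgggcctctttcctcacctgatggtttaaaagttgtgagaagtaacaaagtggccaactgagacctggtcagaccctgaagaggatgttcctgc

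The windows of Mcpt1 and Mcpt4 aligned over 96 bases with 87 identical, and both held TATAAA, 28 and 32 bases before the start. The window of Cpa3 held AGATAA 46 bases and TATAAA 31 bases before the start. The window of Mcpt8 held neither and was identical to that of Mcpt1 at 48.1% of aligned bases. The windows of Cma1 and Hdc, not shown, also held neither motif, although Cma1 is among the genes that define the cells with tryptase or chymase. Over the 300 bases of the table, AGATAA on either strand was found in 11.2% of all 32851 promoters and in 1 of the 6 genes, Cpa3, and TATAAA in 8.32% of all promoters and in 3 of the 6, Cpa3, Mcpt1 and Mcpt4. These are matches of letters and not sites of binding.

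After the filter, which kept barcodes with at least 200 genes and at most 10% mitochondrial UMIs (unique molecular identifiers, each standing for 1 captured RNA molecule), the 5 libraries held 1236 to 19298 cells and 14377573 to 116085791 UMIs. The control and L-fuc libraries of day 7 were far larger than the others. The median number of UMIs per cell was 4922.5 in control day 7 and 2959 in L-fuc day 7. The labels describe sorted CD45-positive cells, but a UMI of Ptprc, which encodes CD45, was found in 26.4% to 48.9% of kept cells, and cells with Sox10, a marker of the tumor line, and no Ptprc numbered 265 to 8785. Libraries shared 516 cell barcodes in all. Of those, 9 passed the protease cut described below in 1 library and none in both. T cells (at least 2 UMIs of Cd3e, Cd3d and Cd3g), macrophages (at least 10 UMIs of C1qa, C1qb and C1qc) and tumor cells (Sox10 without Ptprc) served as cells in which mast cell genes are not expected.

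The levels of the 9 genes, in UMIs per 1000000 UMIs of all kept cells (CPM), were highest in L-fuc day 7, and for 7 of the 9 genes they were lowest in L-fuc day 21. Carboxypeptidase A3 (Cpa3), which trims peptides and venoms in mast cell granules, was at 0.835 in pretreatment day 0, 3.55 in control day 7, 23.1 in L-fuc day 7, 2.76 in control day 21 and 0.0616 in L-fuc day 21. The last of these values is a single UMI. The tryptase gene Tpsab1 was at 1.11, 10.9, 110, 0.436 and 0.0616 in the same order of libraries. Its neighbour Tpsb2 was at 2.16, 4.26, 24.3, 0.242 and 0. Both tryptases were lower in control day 21 than in control day 7, the reverse of the order for Mcpt8 and Hdc below.

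Among the chymases, Mcpt1 was at 1.25 in pretreatment day 0, 47.8 in control day 7, 462 in L-fuc day 7, 68.0 in control day 21 and 0 in L-fuc day 21. Mcpt2 was at 2.57, 28.5, 332, 22.5 and 0 in that order. Both genes, of the mucosal kind, were highest in L-fuc day 7, and from control day 7 to control day 21 Mcpt1 was higher and Mcpt2 lower. Mcpt4, the main chymase of connective tissue mast cells, was at 7.16, 5.74, 31.9, 2.03 and 0. Cma1, the other chymase of those cells, was at 6.96, 6.18, 52.9, 1.06 and 0.247. The pretreatment levels of Mcpt4 and Cma1 came mostly from 1 cell of 854 UMIs, which held 101 of 103 Mcpt4 UMIs and 79 of 100 Cma1 UMIs. A count of 0 in L-fuc day 21 allows up to 0.185 CPM.

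Mcpt8, a granule protease of mouse basophils, was at 0.139 in pretreatment day 0, 0.663 in control day 7, 35.4 in L-fuc day 7, 9.78 in control day 21 and 0.801 in L-fuc day 21. Hdc, which makes histamine, was at 1.74, 1.83, 34.0, 14.8 and 3.82. These 2 genes had their second-highest level in control day 21 and still had 13 and 62 UMIs in L-fuc day 21.

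**Figure D1:**
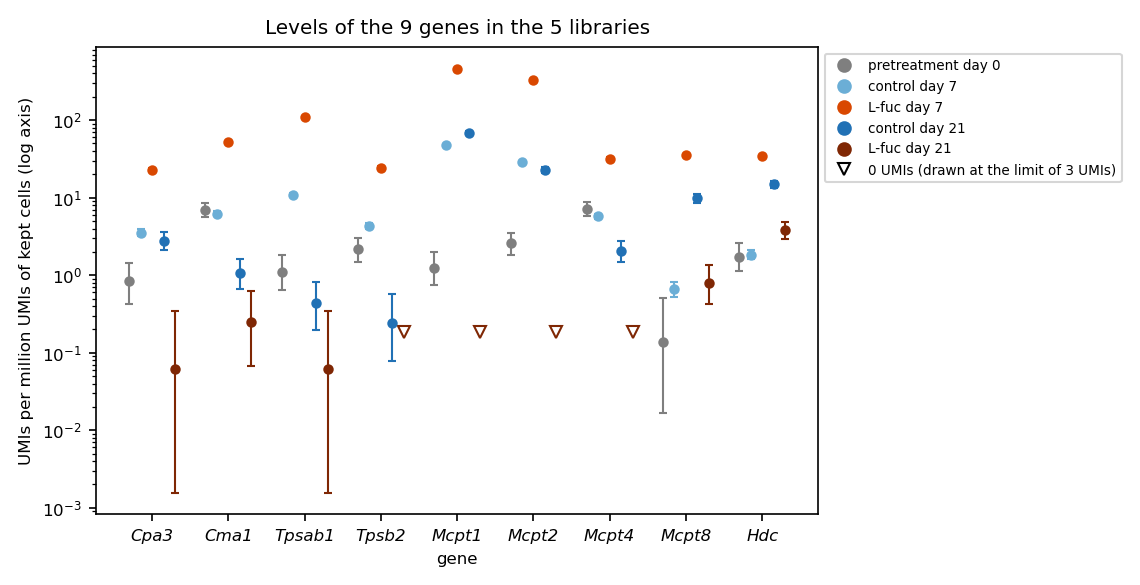
Level of each of the 9 genes in CPM of kept cells (log axis) in the 5 libraries, with exact Poisson 95% intervals (counting error only) and open triangles for 0 UMIs drawn at the limit of 3 UMIs. L-fuc day 7 is the highest point for every gene, from 23.1 for Cpa3 to 462 for Mcpt1, and L-fuc day 21 is the lowest for 7 of the 9.

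At day 7 all 9 genes were at least 2-fold higher in the L-fuc library, against 12.9% of the 17950 genes that had at least 10 UMIs in both libraries together, and none was lower, against 2.3% of genes. Their median log2 ratio was 3.27, and that of all genes tested was -0.07. Because the genes were chosen for their levels, this count says nothing beyond the choice. The ratio of L-fuc to control was 53.4 (42.6 to 67.9) for Mcpt8 and 18.5 (16.1 to 21.4) for Hdc. It was 11.6 (11.2 to 12.1) for Mcpt2, 10.1 (9.56 to 10.8) for Tpsab1, 9.68 (9.41 to 9.96) for Mcpt1 and 8.56 (7.91 to 9.28) for Cma1. For Cpa3 it was 6.5 (5.84 to 7.24), for Tpsb2 5.71 (5.17 to 6.31) and for Mcpt4 5.56 (5.10 to 6.06). These intervals count UMIs as separate, although many UMIs lay in few cells, so they do not rank the genes. Cells with at least 10 protease UMIs, described below, that had at least 3 of Mcpt8 numbered 85 in L-fuc and 3 in control.

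At day 21 the order was turned round, with 8 of the 8 genes that had enough UMIs at least 2-fold lower in the L-fuc library, against 2.79% of 15616 genes, and none higher, against 5.42%. Their median log2 ratio was -4.01, and that of all genes was -0.04. Tpsb2 had 5 UMIs in control day 21 and 0 in L-fuc day 21, too few to be included. Much of the control level came from 1 cell, which held 1386 of the 1405 Mcpt1 UMIs. With the barcode richest in each gene left out of both libraries, Mcpt1 was 19 UMIs against 0, Mcpt2 17 against 0, Cpa3 39 against 0, Mcpt8 91 against 1 and Hdc 268 against 43, and 5 genes, all that still had enough UMIs, were lower. The summed proteases were 91.2-fold lower in L-fuc day 21, and 34.1-fold lower without the 1 cell of each library that had the most protease UMIs. Cma1 was then 6 UMIs against 4, a ratio of 0.849 (0.176 to 3.58).

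Cells with at least 10 UMIs summed over the 8 proteases, called protease-rich cells here, numbered 238 of 36440. They were 2 of 1660 kept cells in pretreatment day 0 (0.120%, interval 0.0146% to 0.435%), 31 of 19298 in control day 7 (0.161%, 0.109% to 0.228%) and 198 of 12265 in L-fuc day 7 (1.61%, 1.40% to 1.85%). In control day 21 they were 6 of 1981 (0.303%, 0.111% to 0.658%) and in L-fuc day 21 1 of 1236 (0.0809%, 0.00205% to 0.450%). The L-fuc share at day 7 was the highest, and the intervals of the other 4 libraries overlapped. The cut sums genes that were chosen for their levels in these libraries, so this order says nothing beyond the choice. These intervals cover counting error within 1 library each and do not compare conditions. The ratio of L-fuc to control was 10.0 (6.86 to 15.2) at day 7 and 0.267 (0.00581 to 2.20) at day 21, and the day 21 interval includes equal shares. Among cells with a Ptprc UMI the shares at day 7 were 2.15% and 0.314%, a ratio of 6.85 (4.01 to 12.5). The median number of UMIs per protease-rich cell was 3651 in control and 3709 in L-fuc at day 7, whereas that of all kept cells was 4922.5 and 2959.

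**Figure D2:**
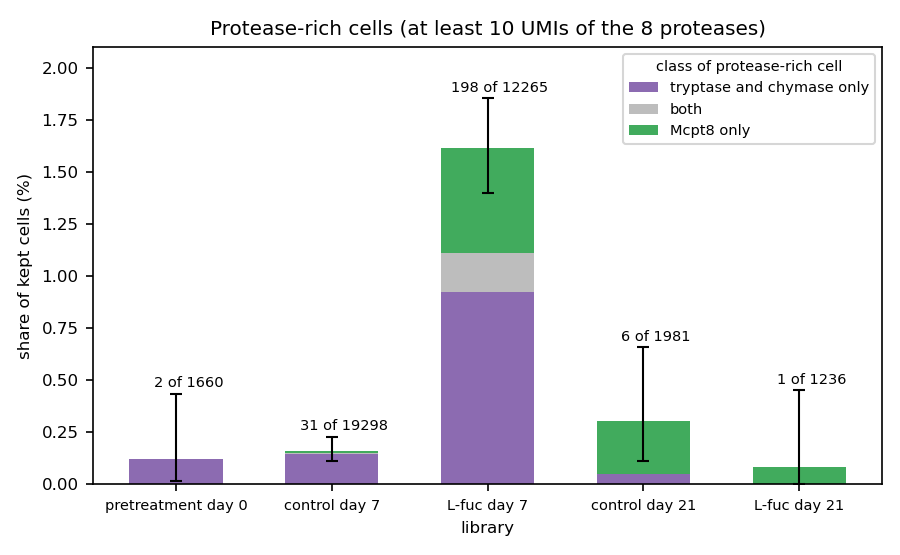
Share of kept cells (%) that had at least 10 UMIs of the 8 proteases, by library, with exact binomial 95% intervals and bars split by the genes found in each cell (tryptase and chymase only, both, Mcpt8 only). The L-fuc day 7 bar reaches 1.61% and the others stay at or below 0.303%, and the Mcpt8 part is wide in L-fuc day 7 and in the day 21 libraries.

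The cells of this cut were checked with genes it did not use. In L-fuc day 7, a UMI of at least 1 of Kit, Fcer1a, Ms4a2, Gata2, Cd200r3 and Il1rl1 was found in 98.2% of cells with 100 or more protease UMIs, 82.5% of those with 20 to 99 and 75% of those with 10 to 19. Below the cut the shares were 17.9% at 5 to 9 UMIs, 5.88% at 1 to 4 UMIs and 4.35% at 0 UMIs. The shares in control day 7 were 100%, 87.5%, 57.1%, 20%, 3.54% and 3.37% in the same order. Just inside the cut, at 10 to 19 UMIs, were 44 cells in L-fuc day 7 and 7 in control day 7, and just outside it, at 5 to 9 UMIs, were 229 and 45. In the protease-rich cells of L-fuc day 7 the neutrophil genes S100a8, S100a9, Mmp9 and Csf3r summed to 16.2 CPM, against 143 in the other kept cells. Of the eosinophil genes, Siglecf was at 18.4 against 1.37 CPM, with 25 UMIs, Ccr3 had 4 UMIs, Epx 1 and Prg2 none. Of the progenitor genes, Cd34 was at 66.4 against 1.80 CPM and Meis1 at 19.2 against 1.94, and neither had a UMI in the cells with Mcpt8 only that are described below. The part of these cells in the results was not tested. Macrophage genes were at 1815 against 2683 and T cell genes at 195 against 335. Of the 198 cells, 77 also passed a macrophage, T cell or tumor cell cut, against 10 of 31 in control. In L-fuc day 7 the macrophage cut took 54 of the 198 and 2319 of all 12265 kept cells. The T cell cut took 22 and 1851, and the tumor cell cut 26 and 3114. Whether protease-rich cells that passed such a cut are 2 cells in 1 droplet was not tested.

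A cut with no member in it, at least 2 UMIs of Ms4a2, a chain of the IgE receptor, and Cd200r3, an activating receptor of basophils and mast cells, was chosen after the data had been seen. It took 2, 5, 117, 9 and 1 cells in the 5 libraries. At day 7 this was 0.0259% of control and 0.954% of L-fuc cells, a ratio of 36.8 (15.3 to 115.5). Of the 117 cells in L-fuc day 7, 95 were protease-rich, 98 had an Mcpt8 UMI, 107 an Hdc UMI, 32 a Kit UMI, and 2 had no protease UMI at all.

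Protease UMIs were also spread thinly over cells that should lack these genes. At day 7, 29.4% of kept cells in control and 37.9% in L-fuc had at least 1 UMI of the 8 proteases, against 0.783% in pretreatment day 0, 3.08% in control day 21 and 0.566% in L-fuc day 21. A UMI of Mcpt1 was found in 15.4% of T cells, 15.6% of macrophages and 14.4% of tumor cells of control day 7, whose median depths were 2919, 4937.5 and 7315 UMIs. In L-fuc day 7 the shares were 19.3%, 18.3% and 17.7%, at 3975, 3176 and 13689 UMIs. With each cell thinned to 1000 UMIs they were 5.76% of T cells, 3.77% of macrophages and 2.76% of tumor cells in control. In L-fuc the thinned shares were 7.01%, 7.73% and 3.45%. In pretreatment day 0 Mcpt1 was found in 0 of 402 T cells, which allows a share of up to 0.746%, and 0 of 265 tumor cells, which allows up to 1.13%. Cells below the cut held 58.7% of the protease UMIs of control day 7 and 8.93% of those of L-fuc day 7. The ratio of Mcpt1 to Mcpt2 UMIs in control was 1.74 (1.64 to 1.84) outside the cut and 1.59 (1.49 to 1.70) inside it. In L-fuc it was 1.54 (1.46 to 1.63) outside and 1.38 (1.36 to 1.40) inside, and those intervals did not overlap. The origin of the UMIs outside the cut was not tested.

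The difference between the libraries at day 7 was therefore read separately inside and outside the cut. Below the cut the summed proteases were at 63.3 CPM in control and 97.3 in L-fuc, a ratio of 1.54, and the ratio was 1.17 in T cells, 1.39 in macrophages and 0.807 in tumor cells. Pooled over protease-rich cells they were at 29977 and 60976, a ratio of 2.03, but the median protease-rich cell had 53 protease UMIs in control and 44.5 in L-fuc, or 21.7 and 14.3 per 1000 UMIs of the cell. The pooled values rest on the deepest cells, since 14 of the 198 cells of L-fuc day 7 held 53.9% of the protease UMIs. Without the richest cell of each library the pooled ratio was 2.93. The widest pooled gaps within these cells were those of Mcpt8, at 250 CPM in control and 2060 in L-fuc (8.23-fold), and of Hdc, which the cut did not use, at 180 and 1448 (8.03-fold). Without the richest cells these ratios were 12.2 and 7.52. The classes of these cells, described below, were also mixed unlike, with at least 3 Mcpt8 UMIs in 3 of 31 control and 85 of 198 L-fuc cells. Among cells with tryptase and chymase only, an Hdc UMI was found in 6 of 28 in control and 30 of 113 in L-fuc. The part of that mix in the pooled gaps was not tested. The pooled level of Tpsab1 was 2.40-fold higher in L-fuc, but its median per cell was 6 UMIs in control and 2 in L-fuc, and the pooled level was carried by cells with up to 999 UMIs. Mcpt2 was 2.25-fold and Mcpt1 1.95-fold higher pooled, and 3.56-fold and 3.83-fold without the richest cells. Their medians per cell were 10 and 11 UMIs in control and 5 and 7 in L-fuc. In the class with tryptase and chymase only, these medians went the other way, 10 and 11.5 in control and 14 and 16 in L-fuc. The median of Tpsab1 in that class was 6.5 in control and 6 in L-fuc. That of the summed proteases was 54 and 55 UMIs, or 24.9 and 19.1 per 1000 UMIs of the cell. For Cpa3, Cma1, Tpsb2 and Mcpt4 the pooled ratios were 1.79, 1.39, 1.39 and 1.24.

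Each protease-rich cell was assigned by whether it had at least 3 Mcpt8 UMIs, at least 3 UMIs of the 6 tryptase and chymase genes Cma1, Tpsab1, Tpsb2, Mcpt1, Mcpt2 and Mcpt4, or both, and no cell had neither. In control day 7, 2 cells had Mcpt8 only, 1 had both and 28 had tryptase and chymase only. In L-fuc day 7 the numbers were 62 (31.3%), 23 (11.6%) and 113 (57.1%). In control day 21 they were 5, 0 and 1, the single cell of L-fuc day 21 had Mcpt8 only, and both cells of pretreatment day 0 had tryptase and chymase only. The share of protease-rich cells with Mcpt8 at day 7 was 9.68% (2.04% to 25.8%) for control cells and 42.9% (35.9% to 50.1%) for L-fuc cells, a difference of 33.3 percentage points (15.7 to 43.8). As a share of kept cells, those with Mcpt8 were 44.6-fold (14.7 to 220.5) and those with tryptase and chymase only 6.35-fold (4.17 to 9.98) more frequent in L-fuc. The former ratio rests on 85 L-fuc and 3 control cells, and the difference between the classes was not tested.

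**Figure D3:**
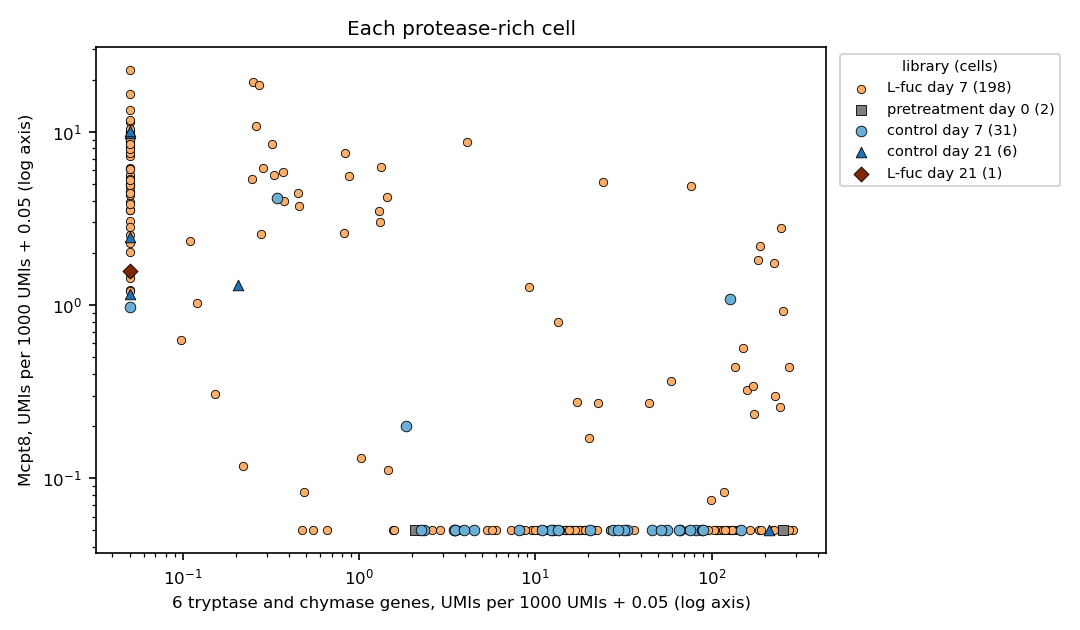
Mcpt8 against the 6 tryptase and chymase genes in each protease-rich cell, both in UMIs per 1000 UMIs of the cell plus 0.05 on log axes, marked by library. Most of the 198 L-fuc day 7 cells lie either at the upper left (Mcpt8 only, 62 cells) or along the lower edge (tryptase and chymase only, 113 cells), and 28 of the 31 control day 7 cells belong to the latter class.

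Over the 198 cells of L-fuc day 7, levels per cell of Mcpt1 and Mcpt2 had a Pearson correlation of 0.972 (Spearman 0.956), those of Mcpt8 and Hdc 0.841 (0.808), those of Tpsab1 and Tpsb2 0.786 (0.799), and those of Mcpt1 and Mcpt8 -0.672 (-0.628). The cells share 1 library and the cut used 8 of the genes, so these values describe that library only.

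Genes outside the 9 were then read in the 62 cells with Mcpt8 only and the 113 cells with tryptase and chymase only of L-fuc day 7. The median depth was 4380 UMIs in the former and 2746 in the latter, and levels are in CPM over the UMIs of the class. Hdc was at 3791 and 203, with a UMI in all 62 and in 30 of the 113 cells. Cpa3 was at 439 and 1273. The classes were cut on other members, and the intervals cover counting error within 1 library.

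A gene was counted as higher where the interval of its ratio excluded 1. Of 9742 genes with at least 10 UMIs in protease-rich cells, 14.3% were higher and 28.1% lower in protease-rich than in other kept cells of L-fuc day 7, and 11.2% were higher in the Mcpt8 cells and 14.1% in the tryptase and chymase cells. All 3 genes of the IgE receptor were higher in protease-rich than in other cells. Fcer1a, the chain that binds IgE, was at 275 in cells with Mcpt8 only and 416 in cells with tryptase and chymase only. Ms4a2, the beta chain, was at 296 and 89.6. Of 8 transcription factors, 6 were above other cells, 4 were higher in the Mcpt8 cells and 1 in the tryptase and chymase cells. Gata2, needed by both lineages, was at 847 and 198. Cebpa, which directs precursors toward basophils, was at 217 and 18.6, and Mitf, needed by mast cells and melanocytes, at 7.00 and 38.9, beside 28.8 in the other kept cells, which include tumor cells.

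Of 14 surface receptors, 11 had at least 10 UMIs in protease-rich cells. Of these, 8 were higher in the Mcpt8 cells and 3 in the tryptase and chymase cells, against 11.2% and 14.1% of all genes tested. Kit, the receptor for stem cell factor, had no UMI in the 62 cells with Mcpt8 only, which allows up to 4.84% of cells with a UMI and does not limit how many express the gene, and was found in 42 of 113 with tryptase and chymase only and in 16 of 23 with both. Cd200r3 was at 607 in the Mcpt8 cells and 81.2 in the others. Il18r1, a chain of the interleukin 18 receptor, was at 124 and 5.07, and Itga2, the integrin chain CD49b used to sort basophils, at 124 and 3.38. Il1rl1, the interleukin 33 receptor, went the other way, at 25.7 and 105. Mrgprb2, the receptor for basic secretagogues on connective tissue mast cells, had 2 UMIs in protease-rich cells of all libraries together, and Ptgdr2 had 0.

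Of 14 cytokines and chemokines, 12 had enough UMIs. Of these, 8 were higher in the Mcpt8 cells and 3 in the tryptase and chymase cells, against 11.2% and 14.1% of all genes tested. Il4, the interleukin of type 2 responses, was at 1354 in the Mcpt8 cells and 42.3 in the others, and Il6 was at 1093 and 30.4. Osm was at 2629 and 76.1, and Csf1, the growth factor of macrophages, at 1062 and 15.2. The chemokines Ccl3 and Ccl4 were at 11441 and 142 and at 17461 and 934. The monocyte chemokine Ccl2 was at 11.7 and 235, and Ccl7 at 0 and 76 UMIs, and other kept cells had 92.5 and 46.8 CPM of these genes. Macrophage genes moved with that difference, since a C1qa UMI was found in 12 of the 62 and 81 of the 113 cells, and their part in it was not tested. Il5 and Il9 had no UMI in protease-rich cells, and Cxcl2 and Areg were below the level of other kept cells.

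**Figure D4:**
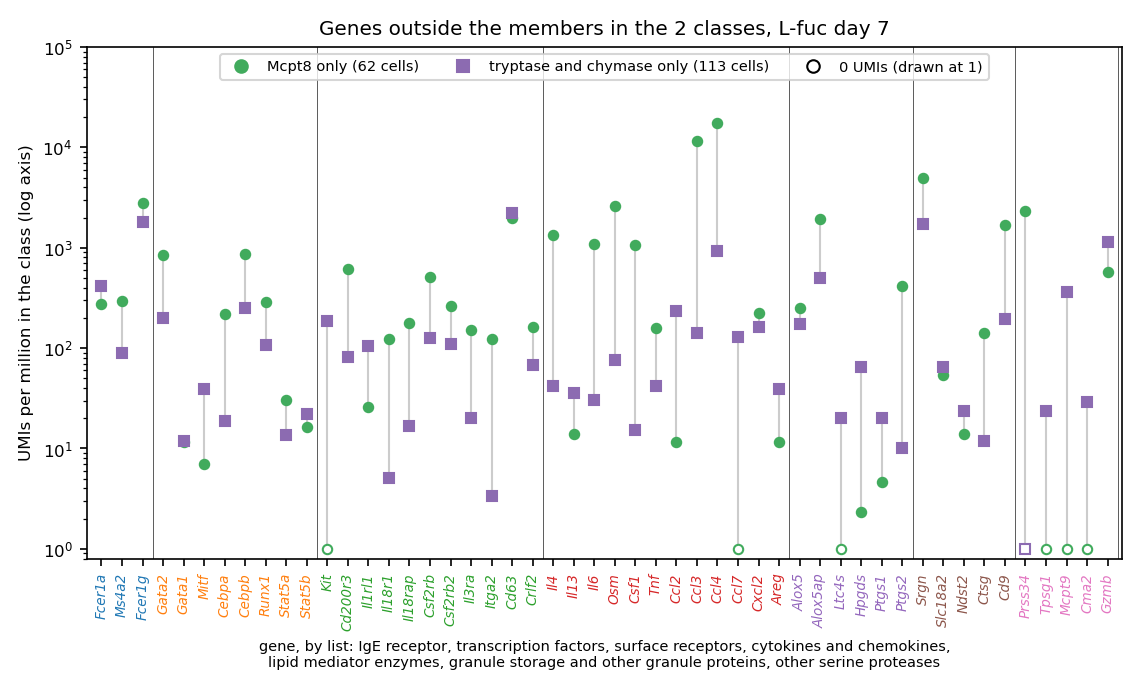
Level in CPM (log axis) of the genes of 7 lists in the L-fuc day 7 cells with Mcpt8 only (62 cells, circles) and with tryptase and chymase only (113 cells, squares), with open symbols for 0 UMIs drawn at 1. Il4, Il6, Osm, Csf1 and Ccl3 lie more than 10-fold higher in the Mcpt8 cells, Kit and Mcpt9 have no UMI there, and Prss34 has none in the tryptase and chymase cells.

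Enzymes of lipid mediators also divided. Ptgs2, which makes prostaglandin precursors, was at 420 in the Mcpt8 cells and 10.1 in the others, whereas Hpgds, the prostaglandin D2 synthase of mast cells, was at 2.33 and 64.3 and Ltc4s, the leukotriene C4 synthase, at 0 and 12 UMIs. Alox5, the first enzyme of leukotriene synthesis, was at 252 and 173. Of 6 genes of granule proteins (Srgn, Slc18a2, Ndst2, Ctsg, Prg2 and Cd9), 5 had enough UMIs. Of these, 3 were higher in the Mcpt8 cells and none in the tryptase and chymase cells, against 11.2% and 14.1% of all genes tested. Ctsg (cathepsin G) was at 142 and 11.8. Of 7 other serine proteases, Prss34, the basophil tryptase, was found in 18 of the 62 Mcpt8 cells with 1006 UMIs and in none of the 113 others, which allows up to 2.65% of cells with a UMI, and it was at least 463-fold higher. A single cell held 466 of its UMIs. Mcpt9 was found in none of the 62 and in 26 of the 113 cells with 212 UMIs, and Tpsg1 had 0 and 14 UMIs. The transcripts of Mcpt9 and Cma2 were identical at 98.1% of 809 aligned bases, and those of Cma2 and Mcpt4 shared a run of 100 bases, so counts of those 3 are uncertain. Tph1, which makes serotonin in mast cells, was found in none of the 62 and in 43 of the 113 cells.

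The 23 cells with both were of unlike kinds, and were split at 100 tryptase and chymase UMIs after the data had been seen. In 9 cells, with a median depth of 3637 UMIs, those genes had 3 to 10 UMIs and Mcpt8 had 4 to 38. Hdc was at 1340 CPM there, Cpa3 at 245, Fcer1a at 93.2 and Cd200r3 at 315, and Kit was found in 2. A single cell of the 9 had 59130 UMIs, with 4 of Mcpt8 and 3 of Hdc. It supplied most of the UMIs that these levels are divided by, which lowered the pooled level of Hdc. In the other 14, with a median depth of 17169.5 UMIs, tryptases and chymases had 446 to 7021 UMIs and Mcpt8 had 3 to 93. There Cpa3 was at 3052 CPM, Fcer1a at 730.2, Hdc at 419 and Cd200r3 at 104, and Kit was found in all 14. Of these 23 cells 3 passed the macrophage cut, 4 the T cell cut and 2 the tumor cell cut, and of the 113 cells with tryptase and chymase only 49, 15 and 20 did so, against 2, 3 and 4 of the 62 with Mcpt8 only. Over all 12265 kept cells of L-fuc day 7 the numbers were 2319, 1851 and 3114.

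Within the cells with at least 100 protease UMIs, 57 in L-fuc day 7 and 8 in control day 7, the proteases came in several combinations. In L-fuc day 7, 31 cells had both a tryptase and Mcpt1 or Mcpt2, 18 had Mcpt1 or Mcpt2 with less than 2% of their protease UMIs from tryptases, 2 had a tryptase with less than 10% from Mcpt1 and Mcpt2, and 6 fell below both limits. Among those 6 were the cells with Mcpt8 only that had 124, 119, 135, 105 and 257 protease UMIs. The numbers in control day 7 were 3, 4, 1 and 0. Cpa3 was found in all 57 cells, Mcpt1 and Mcpt2 in 50 each, Mcpt4 in 47, Cma1 in 44, Kit in 39, Hdc in 37, Tpsab1 in 36, Tpsb2 in 32 and Mcpt8 in 26.

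Single cells show the range. The cell with the most protease UMIs in L-fuc day 7 had 7189 of its 28401 UMIs in the 8 proteases, with 4083 of Mcpt1, 2789 of Mcpt2, 149 of Cma1, 90 of Cpa3, 78 of Mcpt8, 29 of Kit and none of either tryptase. Another cell of that library had 916 UMIs of Tpsab1, 675 of Mcpt2, 520 of Mcpt1, 353 of Cma1, 246 of Mcpt4 and 226 of Tpsb2. In control day 7 the richest cell had 1369 UMIs of Mcpt1 and 706 of Mcpt2 with none of Tpsab1, Tpsb2 or Mcpt4, and a different cell had 125 of Cma1 and 102 of Mcpt4 with none of Mcpt1. Cells rich in Mcpt1 without tryptase were thus found in both libraries.

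Before treatment, 1 cell had the proteases typical of connective tissue mast cells. It had 854 UMIs, of which 229 were protease UMIs, with 101 of Mcpt4, 79 of Cma1, 29 of Tpsb2, 12 of Cpa3, 8 of Tpsab1, none of Mcpt1 or Mcpt2 and 1 of Kit. The other protease-rich cell of that library, with 36 UMIs of Mcpt2 and 17 of Mcpt1 among 32187, also passed the macrophage and T cell cuts. From pretreatment day 0 to control day 7, Mcpt1 was 38.2-fold, Mcpt2 11.1-fold, Tpsab1 9.75-fold and Cpa3 4.25-fold higher, and Cma1 and Mcpt4 were at 0.888 (0.720 to 1.11) and 0.801 (0.650 to 0.995) of the earlier level. Without the richest cell of each library the last 2 ratios were 4.14 (2.69 to 6.73) and 41.2 (11.4 to 341), so the values below equal levels rested on the pretreatment cell of 854 UMIs. Tpsab1 was then 19.5-fold and Cpa3, with 388 UMIs against 0, could be given no ratio. With every cell kept, the interval for Cma1 included equal levels. All these ratios are over all kept cells, and cells below the cut held 58.7% of the protease UMIs of control day 7. The share of protease-rich cells was 0.120% before treatment and 0.161% in control day 7, a ratio of 1.33 (0.339 to 11.5).

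From control day 7 to control day 21 the summed proteases had a ratio of 0.994 (0.949 to 1.04) and Mcpt1 a ratio of 1.42, but 1 cell held 1903 of the 2207 protease UMIs of control day 21. Without the richest cell of each library the sum was at 14.7 CPM at day 21 against 89.2 at day 7, a ratio of 0.165 (0.147 to 0.185), and Mcpt1 was at 0.0256. Over all kept cells, Mcpt8 was 14.7-fold and Hdc 8.07-fold higher at day 21. Tpsab1, Tpsb2 and Cma1 were at 0.0401, 0.0569 and 0.172 of their day 7 level. Without the richest cells Mcpt8 was 18.9-fold and Hdc 8.09-fold higher, and Cma1 was at 0.0480. Of the day 7 UMIs, protease-rich cells held 445 of 1260 for Tpsab1, 165 of 494 for Tpsb2 and 322 of 717 for Cma1. The share of protease-rich cells had a ratio of 1.89 (0.643 to 4.59). Cells with tryptase and chymase only were 1 of 1981 kept cells at day 21 and 28 of 19298 at day 7. That ratio was 0.348, and its interval included equal shares. The part of UMIs outside the cut in the lower levels was not tested. Cells with at least 3 Mcpt8 UMIs were 0.252% of kept cells at day 21 and 0.0155% at day 7, a ratio of 16.2 (3.16 to 105) from 5 and 3 cells. Those 5 cells of control day 21 had 111, 56, 8, 6 and 11 Mcpt8 UMIs and 19, 20, 38, 38 and 27 Hdc UMIs. The single protease-rich cell of L-fuc day 21 had 12 Mcpt8, 19 Hdc and 44 Il6 UMIs.

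The share of a gene's UMIs that lay in protease-rich cells, over all 5 libraries, was 92.3% for Mcpt8, 87.8% for Mcpt2, 86.2% for Mcpt1, 83.6% for Tpsab1, 78.6% for Cpa3, 77.7% for Tpsb2, 76.6% for Mcpt4 and 74.4% for Cma1. For Hdc, which the cut did not use, it was 61.9%. Those cells held 0.639% of all UMIs. The 10 other genes with the largest shares were Prss34 (99.1%), Mcpt9 (90.5%), Tmem233 (87.8%), Tph1 (86.3%), Fcer1a (85.8%), Mrgpra9 (85.1%), A230098N10Rik (82.9%), Ms4a2 (78.3%), Csrp3 (78.0%) and Il4 (77.1%). These shares pool unlike libraries, since protease-rich cells held 91.1% of protease UMIs in L-fuc day 7 and 41.3% in control day 7. Of the 1126 Prss34 UMIs in protease-rich cells, 1058 were from L-fuc day 7.

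Cma1 and Hdc differed from the other genes in where part of their remaining UMIs lay. Cells outside the cut with at least 3 Cma1 UMIs numbered 3, 4, 78, 0 and 0 in the 5 libraries. Of the 78, 72 had a UMI of Ncr1 and 74 of Gzma, both genes of natural killer (NK) cells, 73 had one of Ptprc, 2 had one of Kit, and together they had 311 Cma1 UMIs but 22 of Mcpt1. By class, 48 of the 78 were NK-marker cells as defined below, 10 T cells, 9 macrophages and 2 tumor cells. The genes most enriched in them over the other cells outside the cut were S1pr5 (35.7-fold), Gzma (31.9-fold), Klra3 (26.9-fold), Serpinb9b (26.6-fold), Klrg1 (25.9-fold), Klra7 (23.0-fold), Prf1 (23.0-fold), Klrb1a (22.0-fold), Ncr1 (19.5-fold) and Gzmb (19.3-fold).

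Among cells with at least 2 UMIs of Ncr1 and Klrb1c outside all other classes, a cut added after the data had been seen, a Cma1 UMI was found in 28 of 211 cells of control day 7 (13.3%, 9.0% to 18.6%) and 160 of 491 of L-fuc day 7 (32.6%, 28.5% to 36.9%). The shares were 1.91% and 5.27% in T cells and 1.62% and 2.42% in tumor cells of the same libraries. Thinned to 1000 UMIs, the share was 6.70% and 15.4% in the NK-marker cells and 0.358% and 0.534% in tumor cells. Mcpt1 was found, at 1000 UMIs, in 4.78% and 5.81% of the NK-marker cells, against 2.76% and 3.45% of tumor cells and 5.76% and 7.01% of T cells. In pretreatment day 0, 3 of 19 NK-marker cells had a Cma1 UMI, and none of 402 T cells did. The NK-marker cells held 4.88% of all Cma1 UMIs of control day 7 and 7.79% of those of L-fuc day 7. Of the Cma1 UMIs outside the cut they held 35 of 395 in control and 349 of 943 in L-fuc.

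**Figure D5:**
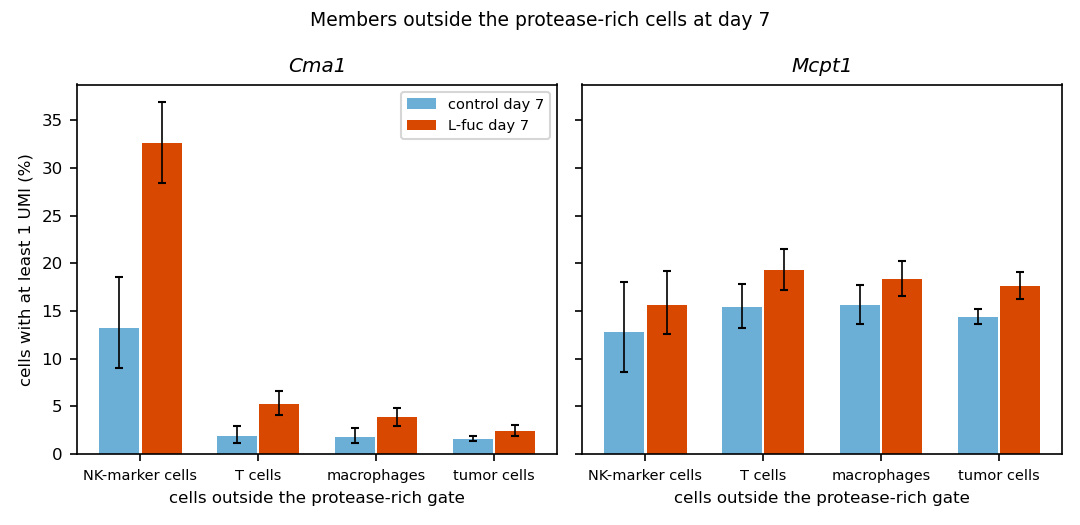
Share of cells outside the protease-rich cut (%) with at least 1 UMI of Cma1 (left) or Mcpt1 (right) in control day 7 and L-fuc day 7, by class, with exact binomial 95% intervals. Cma1 reaches 13.3% and 32.6% in NK-marker cells and stays at or below 5.27% elsewhere, whereas Mcpt1 lies between 12.8% and 19.3% in the 4 classes drawn.

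For Hdc, 0%, 14.6%, 68.2%, 46.7% and 30.6% of the UMIs lay in protease-rich cells in the 5 libraries. Neutrophil-marker cells (at least 10 UMIs of S100a8 and S100a9) numbered 3, 23, 52, 19 and 7, and 1, 11, 39, 13 and 3 of them had an Hdc UMI. Their Hdc level was 427 CPM in control day 7, 685 in L-fuc day 7 and 996 in control day 21. With cells thinned to 1000 UMIs, 33.3% of these cells in control day 7 and 52.9% in L-fuc day 7 had an Hdc UMI, against 0.0578% and 0.249% of tumor cells. They held 3.58% of all Hdc UMIs in L-fuc day 7, and 26.5% and 27.4% in the control and L-fuc libraries of day 21. In L-fuc day 7 cells with a UMI of Ms4a2 or Cd200r3 that missed the cut held a further 343 Hdc UMIs in 34 cells.

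Over all genes with enough UMIs, the protease-rich cells of L-fuc and control day 7 differed by a median log2 ratio of -0.26. The largest ratios were those of the hemoglobin genes Hbb-bt (log2 5.68), Hbb-bs (5.31) and Hba-a1 (5.24), then Prss34 (5.07) and Ccl6 (4.45). Control cells had 1 UMI of Hbb-bt, 20 of Hbb-bs, 4 of Hba-a1 and 3 of Prss34, the last in 1 cell, so the order of these ratios is uncertain. The lowest ratios of all genes with enough UMIs were those of Cma2 (-4.63), Inhba (-3.15), Rarres2 (-2.98), S100a4 (-2.52) and Foxk2 (-2.52). Of the 71 Cma2 UMIs in the protease-rich cells of control day 7, 52 came from 1 cell. The richest control cell for each gene also held 13 of 17 Inhba, 12 of 19 Rarres2, 18 of 31 S100a4 and 20 of 23 Ccl6 UMIs, but 4 of 15 for Foxk2. All 15 Inhba UMIs of the L-fuc cells came from 1 cell. Hemoglobin UMIs moved with the L-fuc library here, and their part in the other differences was not tested.

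The T cell receptor libraries gave a readout that no count of the members entered. A receptor contig shared the barcode of 9 of 198 protease-rich cells in L-fuc day 7 (4.55%) and 2 of 31 in control day 7, and 3 of the 62 cells with Mcpt8 only. The share in T cells was 52.9% in control and 57.4% in L-fuc, and in macrophages 1.04% and 0.466%. In all kept cells outside the protease cut, those T cells and macrophages included, it was 4.87% and 8.81%. The macrophage class leaves out barcodes that passed the T cell cut, which 22 of the 198 protease-rich cells did.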

How the data were processed

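Single cells of pooled tumors were profiled as 5 gene expression libraries and 5 T cell receptor libraries. The authors deposited raw UMI counts per gene and barcode, made with Cell Ranger on mm10. The file headers give version 7.1.0, the submitters' processing notes 3.0 with Seurat 4.0. The study removed doublets with callers, and none was run here. Barcodes with at least 200 genes and at most 10% mitochondrial UMIs were kept, and counts were summed over cells and divided by the total, per 1000000 UMIs. Intervals are 95% (exact Poisson for UMIs, Clopper-Pearson for shares, conditional for ratios), cover counting error only, and a count of 0 was taken to allow 3 counts. Genes were called past 2-fold with a pseudocount of 1 UMI and at least 10 UMIs in both libraries together. Named genes were the 9 members, list genes with at least 10 UMIs in protease-rich cells, the 10 genes with the largest share of UMIs there and the 5 highest and 5 lowest ratios at day 7. The members and lists were chosen with earlier results of these data known, and the rules for NK-marker and neutrophil-marker cells, the cut on Ms4a2 and Cd200r3 and the classes of cells with at least 100 protease UMIs after the levels had been seen. The call rule was tested on simulated data. Tables were read with pandas 2.3.3, intervals computed with scipy 1.17.1 and numpy 2.4.6 and figures drawn with matplotlib 3.10.9, under Python 3.11.15.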

Additional observations from a re-analysis of the deposited data

Results flagged for a closer look

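The direction of the L-fuc to control ratio was opposite at day 7 and day 21 for 8 of the 9 genes and for the share of protease-rich cells, and with 1 library for each condition the difference between the days was not tested. The log2 ratio at day 7 minus that at day 21, both with 1 UMI added, was 7.21 for Cpa3, 4.95 for Cma1, 5.31 for Tpsab1, 13.38 for Mcpt1, 12.06 for Mcpt2, 7.55 for Mcpt4, 9.23 for Mcpt8 and 6.14 for Hdc. For the share of protease-rich cells it was 5.23. Mcpt1, Mcpt2 and Mcpt4 had no UMI in L-fuc day 21, so their values depend on the added UMI. They also rest on 1 cell of control day 21, with 1386 of 1405 Mcpt1, 448 of 465 Mcpt2 and 35 of 42 Mcpt4 UMIs. Without the barcode richest in each gene, the day 21 log2 ratio went from -10.11 to -3.97 for Mcpt1 and from -8.52 to -3.82 for Mcpt2. Those of Cpa3, Mcpt8 and Hdc were lower still, and Cma1, Tpsab1 and Mcpt4 no longer had enough UMIs. At day 21 the share rested on 6 control cells and 1 L-fuc cell, and its interval included equal shares.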

How the results depend on the processing

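No paired analysis was possible because each condition had 1 library. Of 49 alternatives over the 5 main results, none reversed a direction and 41 left the value within its interval or count within 1.5 times. At day 7 the ratio of the share of protease-rich cells was 6.85 with cells that had a Ptprc UMI as the denominator and 36.8 with the cut on Ms4a2 and Cd200r3, which was chosen after seeing the data, and 8.84 to 14.3 otherwise. The cut on Ms4a2 and Cd200r3 read another set of cells. It took 5 control cells, against 31 by the protease cut, and 98 of its 117 L-fuc cells had an Mcpt8 UMI. At day 21 the ratio of the share was 0, from no L-fuc cell and 3 to 5 control cells, with a cut of 20 UMIs, of 3 per 1000 UMIs, of 1% of UMIs (chosen after seeing the data) or with cells thinned to 1000 UMIs, and 0.178 to 0.40 otherwise. All 9 genes were at least 2-fold higher at day 7 under every alternative. At day 21, 7 to 9 were lower, in each case every gene that met the minimum of UMIs. With the richest barcode of each gene left out, which was chosen after seeing the data, 5 were lower, again all that met it. The share of all genes was taken for the main setting only, 12.9% higher at day 7 and 2.79% lower at day 21. The difference in the share of protease-rich cells with Mcpt8 was 48.3 percentage points without barcodes that passed a second class cut, from 70 of 121 and 2 of 21 cells, which was chosen after seeing the data, and 18.6 to 36.6 otherwise. With the cell richest in protease UMIs left out of each library, chosen after seeing the data, 3 ratios between days changed direction, to 4.14 for Cma1 and 41.2 for Mcpt4 (control day 7 over pretreatment) and to 0.0256 for Mcpt1 (control day 21 over control day 7). The small number of protease-rich cells limits the day 21 values, where 1 L-fuc cell passed the cut.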
